A study of Glycine max with 23 samples.

Results

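miR4392, miR4346 and miR5225 are 3 microRNA families of soybean, Glycine max, grouped here because their levels stood highest in flower libraries. Every entry that the table names gma-MIR4392, gma-MIR4346 or gma-MIR5225 was taken, whatever its hairpin arm, and this gave 3 distinct mature sequences of 2839 in the table, 1 entry for each family. The flower values themselves led to their choice, so flower against any other organ is described below without a test. The series sequenced small RNAs of cultivar Williams 82 plants in 23 libraries, 1 for each tissue and stage, with no treatment. Flower was sampled 5 times, as flower bud, bud before flowering, florescence, florescence on another date, and 5 days after flowering. Pods were taken at 1, 2 and 3 weeks and seeds at about 6, 8 and 10 weeks. The other 12 libraries held the leaf bud, 6 leaves, 2 stems, 2 cotyledons and 1 root. The leaves were 3 new ones (from germination, trefoil and flower bud differentiation), 2 old ones (from trefoil and flower bud differentiation) and 1 senescent one. Stem and cotyledon came from germination and trefoil, root from germination, and the leaf bud from flower bud differentiation.

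A plant microRNA is cut from a hairpin transcript and guides an Argonaute protein to transcripts that it matches, which are then cut or kept from translation. Most plant microRNAs are 21 nt long. Those of 22 nt are known to start the making of phased secondary small RNAs from the transcripts they cut, and small RNAs of 24 nt mostly belong to the pathway that directs DNA methylation. miR5225 has been placed in a superfamily of microRNAs whose targets in several dicots include genes of autoinhibited calcium ATPases, pumps that clear calcium from the cytosol.

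The 3 sequences are shown with the seed, bases 2 to 8 from the 5′ end, in capitals. None of the other sequences in the table had any of these 3 seeds. How often a seed is unshared over all sequences was not counted, so this does not set the members apart. Letters are DNA letters as in the deposited table.
miR4392: tCTGCGAAaatgtgatttcgga
miR4346: gAAAGACCaaacgagaagctgcat
miR5225: cCTGTCGTaggagagatgacgc
miR4392 and miR5225 are 22 nt long and miR4346 is 24 nt long, a length shared by 9 of the 595 sequences that averaged 5 or more tags per 5000000 (TP5M), against 202 with 22 nt and 328 with 21 nt. The hairpin of miR4392 lies on chromosome 9 at 46771234 to 46771343 on the plus strand. That of miR4346 lies on chromosome 14 at 4295413 to 4295530 on the minus strand, and that of miR5225 on chromosome 19 at 1921602 to 1921714 on the plus strand. Coordinates are those of the table, whose genome build is not given in the sources used here. Aligned without gaps, miR4392 matched miR4346 at 9 of 22 bases and miR5225 at 9 of 21, and miR4346 matched miR5225 at 8 of 19. RefSeq's gene table for assembly Glycine_max_v4.0 held the symbols of 2 of the 3 members, miR4392 and miR5225.

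2 further sequences came from the same hairpins and were chosen after their positions were seen. M3389-3p is the sequence of miR4392 moved by 1 base towards the 5′ end, so its seed differs. M7056-3p lies at 1921686 to 1921706 towards the end of the miR5225 hairpin. Facing miR5225 without gaps, it formed 15 base pairs over 20 positions, 3 of them G with U, as an opposite arm would.
M3389-3p: cTCTGCGAaaatgtgatttcgg
M7056-3p: gTCATCTTtcctcggctgaag

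Sequencing depth was 3625228 to 6743436 tags per library, as estimated from the value of 1 read, so that 1 read was worth 0.741 to 1.38 TP5M and a library with 0 reads allowed a level of up to 2.22 to 4.14 TP5M (3 reads). Intervals on single libraries are exact Poisson 95% intervals on the recovered reads and cover counting error only. 35 sequences were found in no library outside a set of 6 (old leaf at trefoil, new and old leaf at bud differentiation, and the 3 pods), and no member was among them. The table's columns were matched to libraries by the sample number in the titles. Titles also carry a number in brackets. With the title numbers the correlation of log2(TP5M + 5) averaged 0.833 within and 0.728 between organs, against 0.762 and 0.739 with the bracket numbers. The libraries are whole tissues, so more cells that hold a sequence and more of it per cell cannot be told apart.

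miR4392 was by far the most abundant of the 3 and was a sequence of buds. In flower it stood at 3541.58 TP5M in the flower bud (interval 3429 to 3657), 1338.81 in the bud before flowering (1270 to 1411), 207.1 at florescence (177 to 241), 7.42 at florescence on the other date (2.72 to 16.1) and 170.22 at 5 days after flowering (147 to 197). The 2 bud libraries were the highest of all, and the other-date library lay within the range of the leaves. The leaf bud, a vegetative tissue of the same stage as the flower bud, held 335.15 TP5M (294 to 380), the third highest value of all 23 libraries. Leaves had a lowest value of 0, a median of 4.575 and a highest value of 24.78 TP5M. All 3 pods, both stems and the root were at 0 reads, and so were 2 of the 3 seeds and 1 of the 2 cotyledons, with 1 read each in the remaining seed and cotyledon library. The mean over flower was 1053 ± 1489 TP5M (SD, n = 5), against 8.06 ± 9.42 in leaf (SD, n = 6), so the spread over flower stages was larger than the flower mean.

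Among libraries in order of miR4392 level, the flower bud, the bud before flowering and the leaf bud each stood apart from the next by more than their counting intervals. Florescence and 5 days after flowering overlapped each other, and both stood above the next library, new leaf at flower bud differentiation. In the flower bud miR4392 was the 25th most abundant of all sequences in the table. The flower bud and the bud before flowering together held 86.4% of its summed level.

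Within leaf, miR4392 was lower in the old and senescent libraries than in the new ones. Senescent leaf had 0 TP5M and old leaves had 1.2 TP5M at trefoil and 3.92 at flower bud differentiation, against 5.23 TP5M in new leaf at germination, 13.24 at trefoil and 24.78 at flower bud differentiation. All old and senescent leaves lay below all new ones, as they did for 12.1% of the 595 sequences and, among the members, also for miR4346. The intervals of old and new leaf stood apart at flower bud differentiation (1.07 to 10 in old leaf and 17 to 35 in new leaf) and, narrowly, at trefoil (0.0304 to 6.7 in old leaf and 6.84 to 23.1 in new leaf), and each leaf age and stage is 1 library. The trefoil values rest on 1 read in old leaf and 12 in new leaf. At trefoil the old leaf belongs to the set of 6 libraries with extra sequences and the new leaf does not. Leaf age and that set cannot be told apart there.

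miR4346 was low but spread over more organs. It had 87.74 TP5M in the flower bud, 67.37 in the bud before flowering, 52.39 at florescence, 50.68 at florescence on the other date and 28.52 at 5 days after flowering. All 5 flower libraries were above all 6 leaves, where the lowest value was 0, the median 3.59 and the highest 8.83 TP5M. Pods had 54.01 TP5M at week 1, 15.07 at week 2 and 12.29 at week 3, so the first pod lay within the range of flower. Seeds had 18.89 TP5M at week 6, 9.49 at week 8 and 1.12 at week 10. The leaf bud had 28.96 TP5M (17.9 to 44.3), an interval that overlapped that of 5 days after flowering (19.4 to 40.5). Stems had 4.23 TP5M at germination and 7.28 at trefoil, cotyledons 1.48 and 1.05, and the root 0. It averaged 57.3 ± 21.9 TP5M over flower (SD, n = 5), 27.1 ± 23.3 in pod (SD, n = 3) and 4.12 ± 4.28 in leaf (SD, n = 6). In the order of libraries no neighbours stood apart beyond their intervals, from the flower bud at the top to the senescent leaf and root at 0. Like miR4392 it was lower in senescent leaf (0 TP5M) and old leaves (0 and 0.98 TP5M at trefoil and bud differentiation) than in new ones (8.72, 8.83 and 6.2 TP5M at germination, trefoil and bud differentiation), though the intervals of old and new leaf overlapped at both shared stages. Of the 595 sequences, 12.1% had all old and senescent leaves below all new ones.

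miR5225 was a sequence of flowers and pods. It had 34.91 TP5M in the flower bud (interval 24.6 to 48.1), 103.42 in the bud before flowering (84.9 to 125), 69.44 at florescence (52.6 to 90.0), 3.71 at florescence on the other date (0.765 to 10.8) and 67.17 at 5 days after flowering (52.6 to 84.5). Pods had 39.66 TP5M at week 1 (29.1 to 52.7), 69.16 at week 2 (54.7 to 86.3) and 36.88 at week 3 (25.8 to 51.1). Pod therefore lay within the range of flower, with means of 55.7 ± 37.9 TP5M in flower (SD, n = 5) and 48.6 ± 17.9 in pod (SD, n = 3), so that flower did not stand apart from pod for miR5225. The root held 25.37 TP5M (16.4 to 37.4), above every leaf, stem, cotyledon and seed library. It lay within the range of flower only through the other-date library, as the other flower libraries had 34.91 to 103.42 TP5M. The interval of the root overlapped that of the flower bud. The leaf bud had 6.9 TP5M and leaves a lowest value of 0, a median of 1.035 and a highest value of 4.9 TP5M. Germination stem had 1.69 TP5M and the week 8 seed 1.19, and trefoil stem, both cotyledons and the seeds of weeks 6 and 10 were at 0. The highest value of miR4392 and miR4346 was in the flower bud, and that of miR5225 was 1 stage later, in the bud before flowering. For miR4346 the intervals of the flower bud and the bud before flowering overlapped, so its peak stage is not settled.

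**Figure D1:**
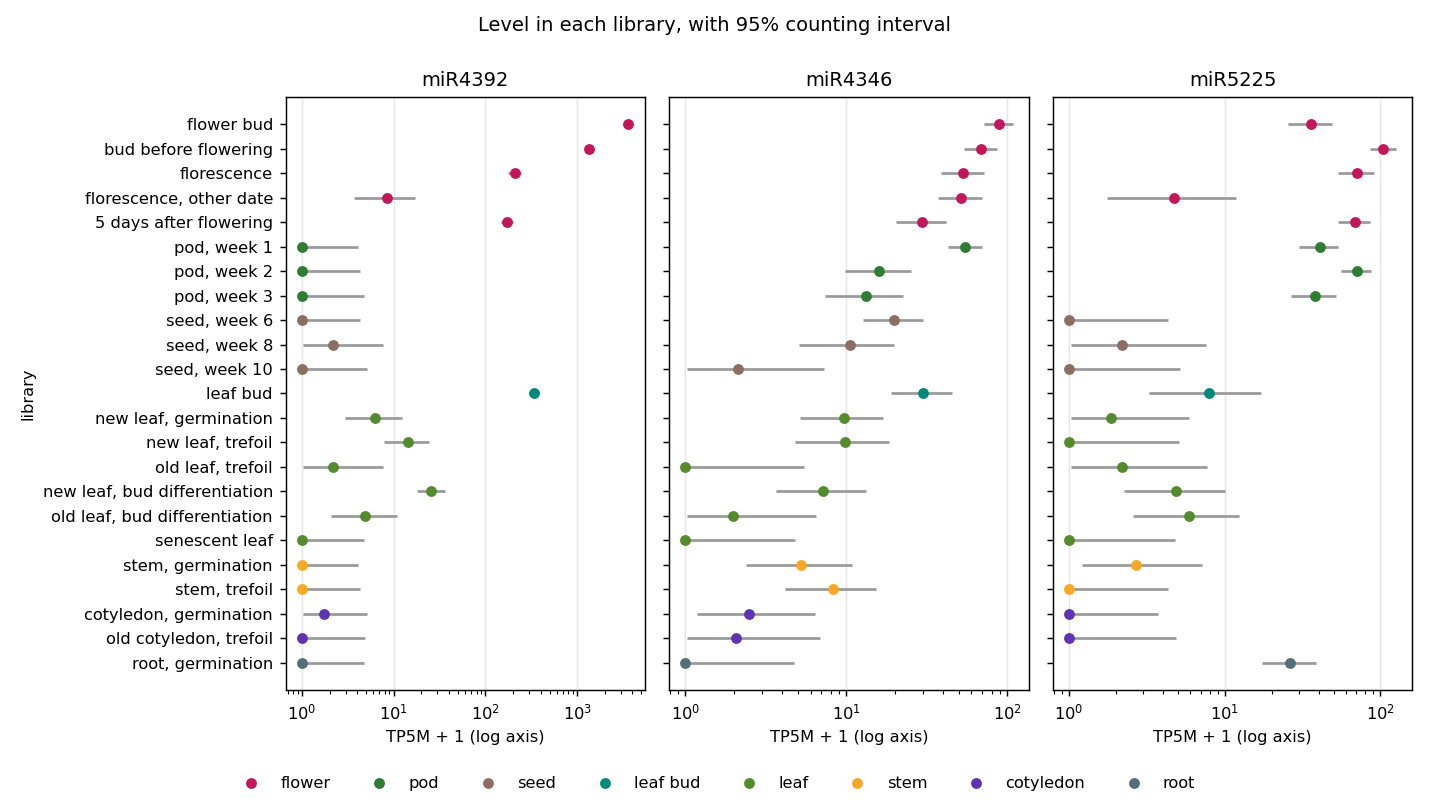
Level of miR4392, miR4346 and miR5225 in each of the 23 libraries, as TP5M + 1 on a log axis, with libraries grouped by organ down the page, flower at the top, and exact 95% counting intervals as grey lines. miR4392 runs from 3541.58 TP5M in the flower bud to 0 in all 3 pods, whereas miR5225 stays at 36.88 to 69.16 TP5M in pods and reaches 25.37 in root.

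Shares of the summed level over all libraries set the members beside the other sequences. The 5 flower libraries held 93.2% of the summed TP5M of miR4392, 61.6% of that of miR4346 and 59.2% of that of miR5225. An even spread over libraries would give 21.7%, and the median over the 595 sequences was 23.9%. By this share miR4392 ranked second, miR4346 rank 19 and miR5225 rank 22 of 595. 1.51% of the 595 sequences had a share over 75%, and miR4392 was the 1 member of the 3 among them. Counting each of the 8 organs once, flower held 75.4% for miR4392, 42.7% for miR4346 and 39.9% for miR5225. The even share and median above do not apply to this count, whose even share is lower. Its median over all sequences was not computed. Of the 3, miR4346 alone had no overlap between flower and leaf, where 8.57% of the 595 sequences lay higher in flower without overlap. These shares were the ground for choosing the members and test nothing.

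**Figure D2:**
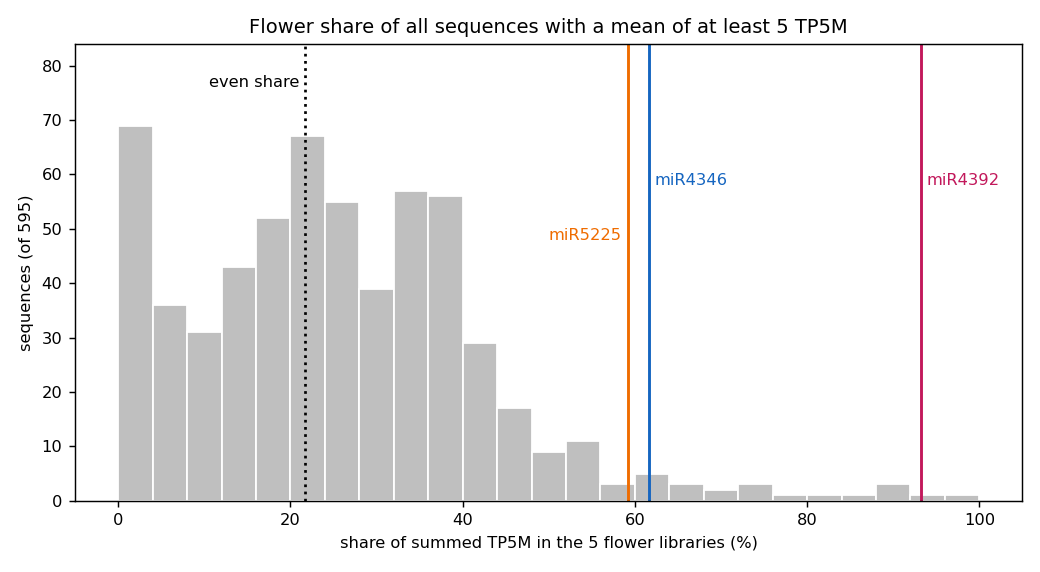
Histogram of the share of summed TP5M that the 5 flower libraries held, for the 595 sequences that averaged 5 TP5M or more, with vertical lines for the 3 members and a dotted line at the even share of 21.7%. miR4392 lies at 93.2%, miR4346 at 61.6% and miR5225 at 59.2%.

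Flower bud and leaf bud were taken at the same stage, and each is 1 library, so their comparison is one of libraries. miR4392 was 10.6 times as high in the flower bud as in the leaf bud (95% counting interval 9.28 to 12.1), miR5225 5.06 times (1.98 to 16.5) and miR4346 3.03 times (1.87 to 5.12). On the scale log2(TP5M + 5), the difference was 3.38 for miR4392, 1.75 for miR5225 and 1.45 for miR4346, and the median of the 595 sequences was 0.09. 4.87% of them were higher in the flower bud by at least 2 on that scale, miR4392 among them.

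From bud to pod the 3 sequences took different courses. All 3 pods and no flower library belong to the set of 6 libraries with extra sequences. A step from flower to pod therefore cannot be told apart from that set. miR4392 in the bud before flowering was at 0.378 times its flower bud level (interval 0.355 to 0.402), and at florescence at 0.155 times its level in the bud before flowering (0.131 to 0.181). The second step was −2.66 on the scale log2(TP5M + 5), and 1.18% of the 595 sequences were lower there by at least 2. It did not differ beyond counting error between 5 days after flowering and florescence (ratio 0.822, interval 0.664 to 1.02). In the week 1 pod it was at 0 reads, against 185 reads at 5 days after flowering, a step in which 12.6% of the 595 were lower by at least 2 on that scale. miR4346 in the bud before flowering stood at 0.768 times its flower bud level (interval 0.556 to 1.06) and at florescence at 0.778 times its level in the bud before flowering (0.520 to 1.15), and both intervals include 1. At 5 days after flowering it was at 0.544 times its florescence level (0.332 to 0.884). In the week 1 pod it was 1.89 times as high as at 5 days after flowering (1.21 to 3.01), and in the week 2 pod 0.279 times the week 1 level (0.153 to 0.482). miR5225 went the other way from miR4392 between the buds, being 2.96 times as high in the bud before flowering as in the flower bud (2.02 to 4.43). At florescence it was at 0.671 times its level in the bud before flowering (0.479 to 0.933), and in pods 1.74 times as high at week 2 as at week 1 (1.20 to 2.56) and 0.533 times as high at week 3 as at week 2 (0.349 to 0.801).

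**Figure D3:**
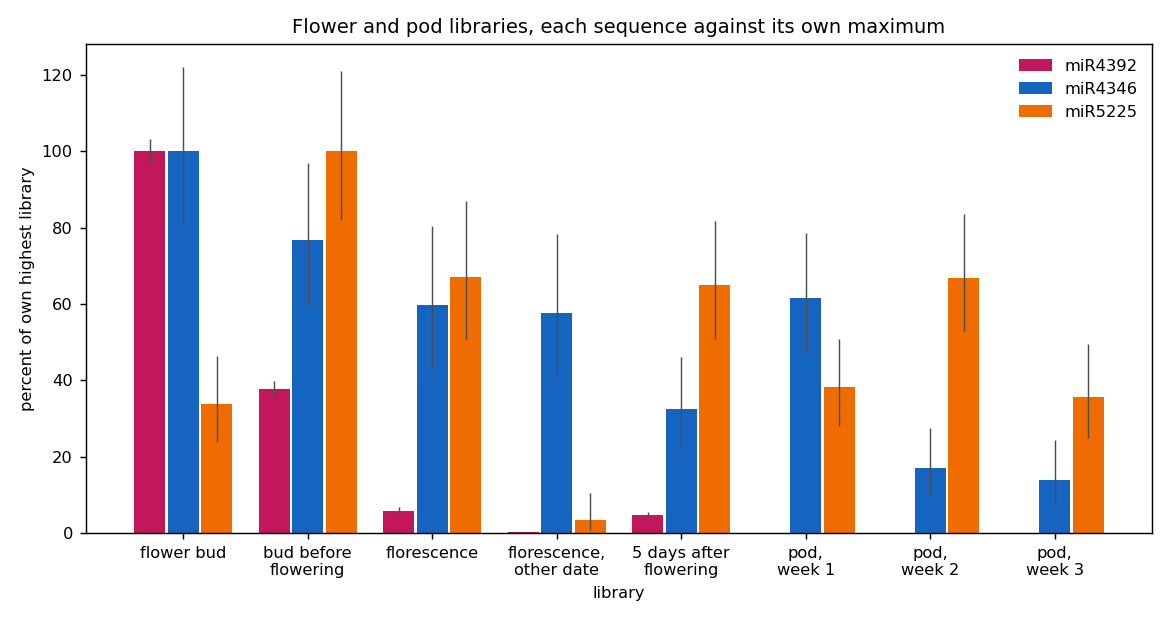
Level of each member in the 5 flower and 3 pod libraries as a percentage of its own highest library, with 95% counting intervals as lines. Bars of miR4392 fall away after the 2 bud libraries (3541.58 and 1338.81 TP5M) and are at 0 in pods, those of miR5225 are tallest in the bud before flowering (103.42 TP5M) and continue through the pods, and the other-date florescence library has a tall bar for miR4346 and short ones for the other members.

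The 2 libraries called florescence here came from different dates and differed widely for miR4392 and miR5225. Their tissue labels differ, being florescence for the first and flower for the other-date library. Flower is also the tissue label of 5 days after flowering, so whether the 2 libraries are of the same stage is not certain. Ordered by the bracket numbers of the titles, the other-date library falls between 5 days after flowering and the week 1 pod. Whether that order is one of stage was not tested. The other-date library had 7.42 TP5M of miR4392, from 6 reads, against 207.1 TP5M, from 170 reads, in the first florescence library, 27.9 times less (interval 12.6 to 77.2). It had 3.71 TP5M of miR5225, from 3 reads, against 69.44, from 57 reads, a ratio of 0.0534 (interval 0.0107 to 0.164). miR4346 did not differ beyond counting error, with 50.68 TP5M on the other date against 52.39 on the first (ratio 0.967, interval 0.615 to 1.52). On the scale log2(TP5M + 5) the difference was −4.09 for miR4392, −3.10 for miR5225 and −0.04 for miR4346, with a median of −0.50 over the 595 sequences. 11.8% of the 595 were lower on the other date by at least 2 on that scale, 2 of the 3 members among them, and miR4392 was the 5th lowest of all. Across the 595 sequences the other-date library correlated most closely with the week 1 pod (Pearson r of log2(TP5M + 5) 0.906), then with 5 days after flowering (0.904) and the first florescence library (0.891). The first florescence library correlated most closely with 5 days after flowering (0.948). These correlations are across sequences, which are not independent replicates, and their part in the low values was not tested. Without the other-date library the flower mean was 1314 TP5M for miR4392, 59.0 for miR4346 and 68.7 for miR5225.

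**Figure D4:**
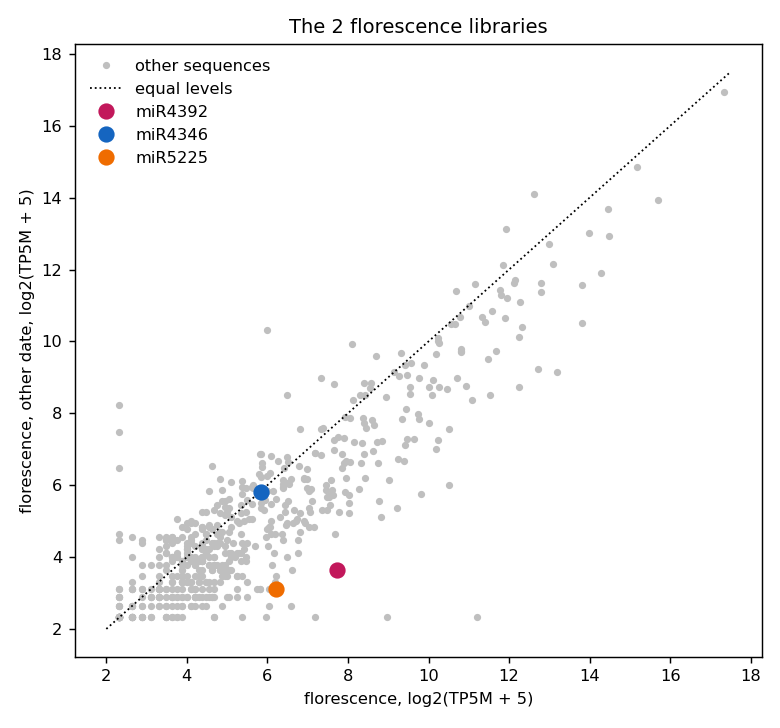
Levels of 595 sequences, as log2(TP5M + 5), in the florescence library of the other date (vertical) against the first florescence library (horizontal), with a dotted line of equal levels. miR4392 lies below the line by a difference of −4.09, miR5225 by −3.10, and miR4346 lies close to it at −0.04.

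Seed was compared with pod in limma on log2(TP5M + 5), with p-values adjusted by the method of Benjamini and Hochberg over the 595 sequences. The difference takes its means from the seed and pod libraries, and its error from the spread between stages within organs over all 23 libraries, flower and leaf included. miR5225 was lower in seed, at 0.397 ± 0.687 TP5M, against 48.6 ± 17.9 TP5M in pod (SD, n = 3 each). Its seeds had 0, 1.19 and 0 TP5M and its pods 39.66, 69.16 and 36.88, in order of age, and the organs did not overlap. The log2 difference was −3.27 ± 0.63 (SE), with an adjusted p of 0.00169 in limma, and 0.00218 where the error came from the pod and seed libraries alone, a fit added after the data were seen in which 194 sequences were called, against 97. miR5225 was the 1 member called, and 12.3% of the 595 sequences were called lower and 4.03% higher in seed, while 40.0% lay higher in pod than in seed without overlap. The call was lost when a term was added for the 6 libraries with extra sequences, all 3 pods among them. The log2 difference was then −2.64, with a limma adjusted p of 0.136. No seed is in that set, so the term was estimated from the split among leaves alone. The lost call therefore cannot tell the set from the organ. miR4346 averaged 9.83 TP5M in seed and 27.1 in pod, a log2 difference of −1.09 ± 0.58 that did not pass the test (limma adjusted p = 0.215), and its organs overlapped. miR4392, with 0 reads in the pods and 1 read over the seeds, had no level to compare. The median difference of the 595 sequences was −0.64, and −0.16 with TMM scaling, under which miR5225 differed by −2.97 and the calls were 46 lower and 45 higher, against 73 lower and 24 higher without it.

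Against leaf, which may have served in choosing the members, differences are given without a test. Pod minus leaf was 2.98 ± 0.55 (log2, SE) for miR5225, 1.73 ± 0.50 for miR4346 and −1.10 ± 1.11 for miR4392. All 3 pods but only some of the leaves belong to the set of 6 libraries with extra sequences. Seed minus leaf was −0.29 ± 0.55 for miR5225, 0.64 ± 0.50 for miR4346 and −1.0 ± 1.11 for miR4392. Stem and cotyledon differed from leaf by less than 1 standard error in all 3 members. That error comes from the spread within organs over all 23 libraries, flower included, so it does not show these organs to be alike. For miR4392 stem minus leaf was −1.10 ± 1.28, and its flower values ran from 7.42 to 3541.58 TP5M. miR4392 had 0 reads in both stems, and 0 and 1 read in the cotyledons, against 0 to 32 reads in leaves.

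The sequences from the same hairpins were read for miR4392 and miR5225. M3389-3p, the form of miR4392 shifted by 1 base, had 14.15 TP5M in the flower bud, 3.8 in the bud before flowering, 1.22 at florescence, 0 on the other date and 0.92 at 5 days after flowering. Outside flower it was found in the leaf bud alone, at 1.38 TP5M. It had 22 reads in all, 15 of them in the flower bud and 4 in the bud before flowering, and its summed level was 263 times less than that of miR4392. Like miR4392 it was higher in the flower bud than in the bud before flowering, and with 0 or 1 read its other libraries show no order. M7056-3p, from the miR5225 hairpin, had 3.77 TP5M in the flower bud, 25.62 in the bud before flowering, 17.06 at florescence, 0 on the other date and 30.36 at 5 days after flowering. In pods it had 1.69 TP5M at week 1, 9.75 at week 2 and 1.02 at week 3. It was highest in the flower libraries other than the flower bud and the other-date florescence, and among pods it was highest at week 2, as miR5225 was. It was found in 11 libraries, all of which also held miR5225. 77.0% of its summed level was in flower, against 59.2% for miR5225. At week 1 its ratio to 5 days after flowering was 0.0557 (interval 0.00646 to 0.217), against 0.590 (0.400 to 0.864) for miR5225, so the arms did not keep 1 ratio between these libraries. Over the 23 libraries the Pearson r of log2(TP5M + 5) was 0.834 between miR5225 and M7056-3p and 0.848 between miR4392 and M3389-3p. The r of 0.848 rests largely on the flower bud and the bud before flowering, as M3389-3p had 0 or 1 read elsewhere. In each pair both come from the same hairpin and libraries.

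**Figure D5:**
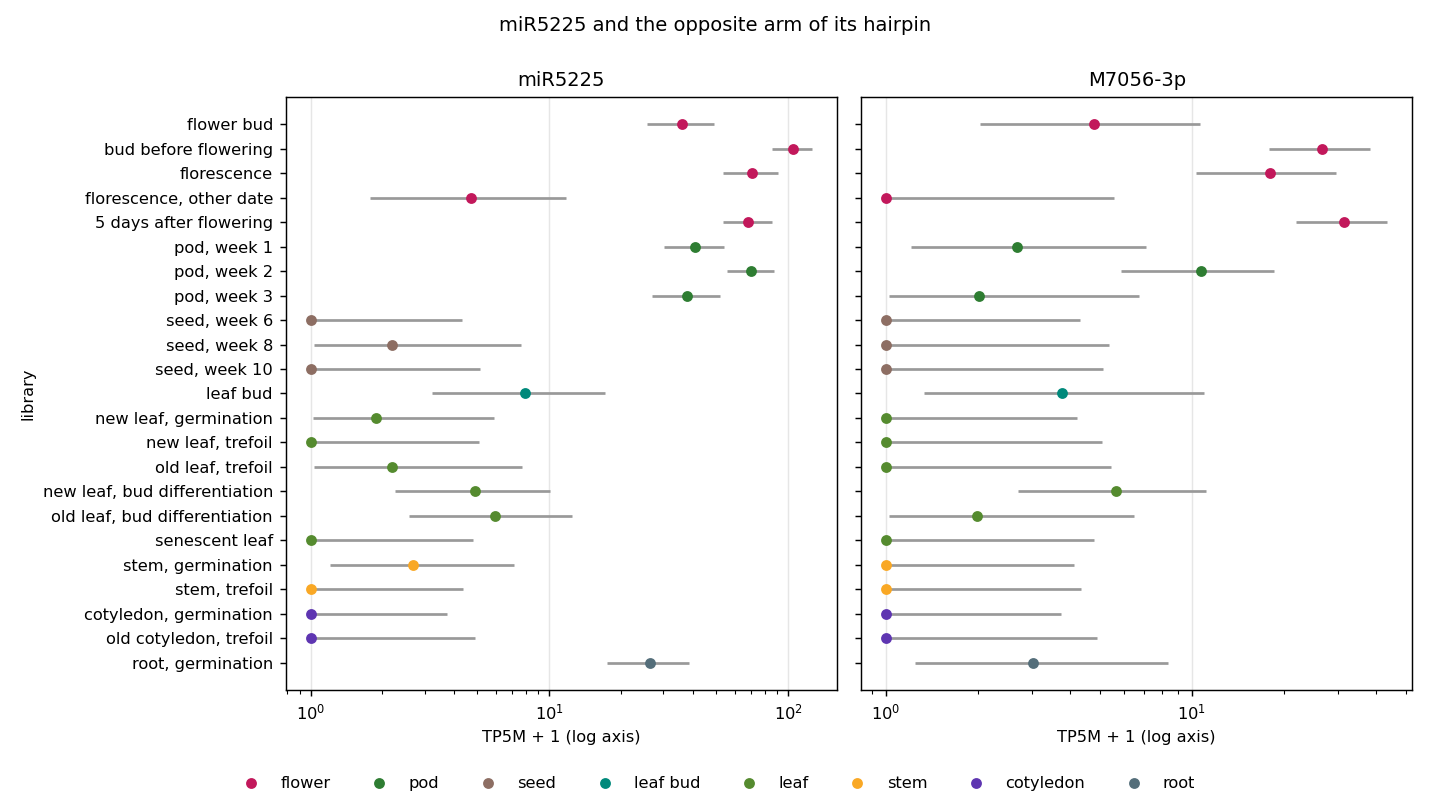
Level of miR5225 and of M7056-3p from the same hairpin in each library, as TP5M + 1 on a log axis with exact 95% counting intervals. M7056-3p is highest in the bud before flowering, florescence and 5 days after flowering, at 17.06 to 30.36 TP5M, and among pods at week 2, at 9.75 TP5M.

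M7055-5p, a 22 nt sequence whose hairpin ends 19.0 kb before that of miR5225 on chromosome 19, matched miR5225 at 15 of 20 bases when aligned without gaps and was picked out after its position was seen. It was at 345.72 TP5M in old cotyledon and at most 5.66 TP5M in flower, so its distribution was not that of miR5225, which was at 0 reads in both cotyledons.

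The sequences whose pattern was most like each member were named by the Pearson r of log2(TP5M + 5) over the 23 libraries, which share depth and tissue makeup. For miR4392 they were M3160-5p (r = 0.934), M4696-3p, whose older name is miR169v (0.922), M0505-3p (0.827), M0483-5p (0.826) and M7847-3p (0.816). The sequence that now bears the name miR169v is a different one, with 0% of its summed level in flower. M3160-5p had 90.3% of its summed level in flower and, like miR4392, its highest value in the flower bud. For miR4346 they were M5573-5p (0.910), M7847-3p (0.907), M1230-3p (0.904), M1094-3p (0.90) and M0913-5p (0.889), of which M1094-3p was highest in the leaf bud. For miR5225 they were M1341-5p (0.873), M3828-5p (0.790), M7751-3p (0.768), M0483-5p (0.75) and M1230-3p (0.75), with M1341-5p highest in the week 2 pod. All of these lists hold 21 to 23 nt sequences, as most of the 595 were (328 of 21 nt, 202 of 22 nt and 13 of 23 nt). Among the members, r was 0.702 for miR4392 with miR4346, 0.638 for miR4346 with miR5225 and 0.549 for miR4392 with miR5225, each lower than that with the first sequence named for either member.

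Other families give the setting. Of 42 sequences of families known to start phased secondary small RNAs (among them miR390, miR393, miR482, miR828, miR1507, miR1510, miR1514, miR1515, miR2109 and miR2118), 30 were tested, and limma called 4 higher and 0 lower in flower than in leaf. Over all 595 sequences 21.2% were called higher and 3.70% lower, and with TMM scaling, which moved the median of all sequences by the 0.43 given next, 61 were called higher and 38 lower, against 126 and 22 without it. The list's median log2 difference was 0.14, against 0.43 over all sequences. miR1507a, a regulator of NLR defence genes, averaged 18490 ± 3468 TP5M over flower libraries (SD, n = 5) and 18032 ± 6629 over leaves (SD, n = 6), and miR2118a-5p, from a family that targets such genes, was 22694 ± 10463 in flower and 14727 ± 20284 in leaf, and neither was called. Of 54 sequences of families of flower and anther development (miR156, miR159, miR160, miR164, miR167, miR172 and miR319), 37 were tested and 6 were called higher and 7 lower in flower, with a median of 0.05. miR319a, from a family that targets TCP genes, rose to 14293 ± 6174 TP5M in flower, against 2360 ± 1823 in leaf (log2 3.20 ± 0.77, limma adjusted p = 0.00668). miR159a-3p, from a family that targets GAMYB-like genes, was 156123 ± 16855 TP5M in flower and 161221 ± 65053 in leaf (limma adjusted p = 0.903). With TMM scaling the counts were 3 higher and 0 lower for the first list and 3 and 9 for the second. The flower share was 23.7% for miR1507a, 38.6% for miR2118a-5p, 36.3% for miR319a and 20.3% for miR159a-3p. These examples were picked for their large means, and miR172c of the second list had 61.5%. Because the 3 members were chosen for high flower values, setting their shares against these tests nothing.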

How the data were processed

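Small RNA of 15 to 30 nt was gel-purified from total RNA, amplified and sequenced on an Illumina instrument, per the labels' protocols. The authors deposited a signal in TP5M, tags scaled to 5000000 in each library, per the file headers. The submitters' processing notes name BWA but give it no role or version. Entries with the same sequence were merged by their maximum (3933 entries, 2839 sequences). The step between low values gave whole reads for 100.0% of 28843 values of up to 200 reads, within 0.1 read. Log2(TP5M + 5) of the 595 sequences averaging 5 TP5M or more entered limma 3.58.1, with 1 coefficient for each organ across the 23 libraries and a trended eBayes prior, and p-values were adjusted by Benjamini-Hochberg, with calls at 0.05. Log2 differences on that scale understate changes of low sequences. edgeR 4.0.16 and DESeq2 1.42.0 on the recovered reads, TMM scaling, other pseudocounts, no filter and leaving out each library were alternatives. Members were named in full, likeness partners were the 5 highest in Pearson r, and 2 examples were given per list, those with the largest mean. The members and lists were chosen with earlier results of these data known. Tests of members against leaf were planned but their p-values are not given, since leaf may have served in the choice. Relatives of miR5225 outside its hairpin are not reported here, M7055-5p aside.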

Additional observations from a re-analysis of the deposited data

Results flagged for a closer look

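2 values stood far from the other libraries of their organ by Dixon's test at 95%. That test takes the libraries as replicates with normal error, whereas they are different stages and these values are low counts. Its nominal rate of about 1 group in 20 therefore does not apply, and the flags are descriptions only. M7056-3p, from the miR5225 hairpin, had 4.65 TP5M in new leaf at flower bud differentiation, where the other 5 leaves had 0 to 0.98 TP5M. M3389-3p, the shifted form of miR4392, had 14.15 TP5M in the flower bud, where the other 4 flower libraries had 0 to 3.8 TP5M. miR4392 itself was chosen for high flower values.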

How the results depend on the processing

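Merging equal sequences by their sum changed no member. With columns matched by the bracket numbers, the flower share was 0.0211% for miR4392, 20.4% for miR4346 and 31.6% for miR5225, and the flower mean 0.238, 19.0 and 29.7 TP5M. Stem would then have the highest mean of miR4392 (1777 TP5M) and seed that of miR4346 (56.8) and miR5225 (58.9), so the description rests on the title numbers. With TMM scaling the share was 53.1% for miR4346 and 47.6% for miR5225, and with each organ counted once 75.4% for miR4392, 42.7% for miR4346 and 39.9% for miR5225. An even share is lower by organ than by library. Leaving out 1 flower library gave shares of 81.7% to 93.2% for miR4392, the lowest without the flower bud, 52.7% to 59.1% for miR4346 and 47.8% to 58.9% for miR5225. The flower mean of miR4392 was 431 TP5M without the flower bud, against 1053 with it.

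The flower mean with TMM scaling was 711 TP5M for miR4392, 40 for miR4346 and 35.8 for miR5225. TMM scaling also turned pod minus leaf to 41 higher and 31 lower calls (73 and 27 without it) and seed minus leaf to 68 higher and 54 lower (40 and 57 without it). Numbers of sequences called moved more. Pod minus leaf called 100 sequences, edgeR 56, limma with the added term for 6 libraries (chosen after seeing the data) 59, and 46 to 146 without 1 library. Seed minus leaf called 97, edgeR 160, DESeq2 200, limma without a filter 233, with the term 62, and 56 to 109 without 1 library. Seed minus pod called 97, without a filter 205, with the term 17, with the error from pod and seed alone (also added) 194, and 58 to 84 without 1 library. Cotyledon minus leaf called 58, DESeq2 158, with the term 37, and 16 to 81 without 1 library. Stem minus leaf called 41, DESeq2 124, and 13 to 44 without 1 library. Flower minus leaf called 148, edgeR 95, and 108 to 212 without 1 library, 144 of these without the other-date florescence. The cause of these moves was not tested. A lone cotyledon or stem is assumed to vary like the other groups. The call of miR5225 in seed minus pod held under all of these but the added term (adjusted p 0.000402 with DESeq2 to 0.0162 without the week 2 pod). No paired analysis was possible because the labels give no replicate numbers, and pod and seed, compared for the members, share no stage. Depth limits each of the 3 members where it rests on under 10 reads.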
